A study of Rattus norvegicus with 2 samples.

Results

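Wwtr1, Yap1, Tead1, Tead2, Tead3, Tead4 and Vgll4 encode TAZ, YAP, the TEAD DNA-binding proteins and a cofactor that competes for them. They were taken by gene symbol from a table of gene expression values, which gave 7 genes of 21224 gene rows, each on 1 row. The comparison was between cortical neurons from rat embryos (E18) given a control small interfering RNA (siNC) and cells of the same kind given one against Ythdf3 (siYthdf3). The YTHDF3 protein recognises adenosines of messenger RNA that carry the m6A methyl mark. There was 1 library per group, which allows no test between conditions, and differences are described by size and counting error. The number of animals, the dose, the time after transfection and any exposure to low oxygen are not stated in the labels.

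YAP and TAZ are related transcriptional coactivators that do not bind DNA themselves and reach their target genes through TEAD proteins. The Hippo kinases restrain them: MST kinases (Stk3, Stk4) activate LATS kinases (Lats1, Lats2), which phosphorylate YAP and TAZ and so favour their retention in the cytoplasm and their degradation. Vgll4 binds TEAD proteins in competition with YAP and TAZ. In the developing cortex YAP and TEAD genes are known for their activity in radial glia and other progenitors, and YAP also in astrocytes. Messenger RNA says nothing direct about the phosphorylation or the nuclear level of these proteins, which were not measured here.

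The upstream sequences of Wwtr1 and Yap1 are shown because these paralogous genes gave unlike differences, and that of Vgll4 because it held the TEAD hexamer at 2 places. They are RefSeq sequences of the GRCr8 build, 250 bases before an annotated start, 5′ to 3′ on the gene's own (minus) strand. Capitals mark GGAATG or, on the other strand, CATTCC, the core of the TEAD site. Of the 7 genes, 4 matched a promoter entry (Wwtr1, Yap1, Tead3 and Vgll4, with 6 entries).
Wwtr1, chr2:143916942-143917191: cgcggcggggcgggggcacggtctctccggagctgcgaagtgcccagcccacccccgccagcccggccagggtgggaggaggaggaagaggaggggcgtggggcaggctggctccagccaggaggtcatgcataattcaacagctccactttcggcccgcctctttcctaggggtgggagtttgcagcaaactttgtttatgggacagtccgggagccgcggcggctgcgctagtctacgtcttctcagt
Yap1, chr8:13451438-13451687: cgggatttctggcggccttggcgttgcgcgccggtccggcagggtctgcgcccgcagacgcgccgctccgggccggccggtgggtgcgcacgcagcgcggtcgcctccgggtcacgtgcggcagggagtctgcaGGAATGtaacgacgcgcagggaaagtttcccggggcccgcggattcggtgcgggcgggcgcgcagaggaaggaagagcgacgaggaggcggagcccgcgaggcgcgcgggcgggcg
Vgll4, chr4:149710215-149710464: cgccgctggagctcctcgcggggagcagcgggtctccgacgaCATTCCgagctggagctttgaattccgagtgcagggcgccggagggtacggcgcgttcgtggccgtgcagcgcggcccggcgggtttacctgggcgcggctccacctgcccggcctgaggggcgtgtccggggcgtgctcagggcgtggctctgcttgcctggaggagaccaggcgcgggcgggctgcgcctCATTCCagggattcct
In these windows Wwtr1 had 0 matches and Yap1 had 1, which began 116 bases before the start. The Vgll4 window shown had 2, beginning 208 and 16 bases before the start, and the other Vgll4 entries and Tead3 had 0. Of all 33469 windows of this length, 12.1% held the hexamer. A match describes the letters only and does not show binding.

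Reads assigned to genes numbered 15392218 in siNC and 22586543 in siYthdf3. Levels are FPKM, read numbers corrected for gene length and library depth. The targeted gene Ythdf3 was at 9.38 FPKM in siNC and 6.93 FPKM in siYthdf3. Its FPKM ratio was 0.739, with a 95% counting interval of 0.675 to 0.809. Neuronal markers were abundant in both libraries, such as Tubb3 at 260 and 251 FPKM. The progenitor gene Vim was at 708 and 357 FPKM and the astrocyte gene Gfap at 68.2 and 141 FPKM. The libraries thus held RNA of more than neurons. Vim and Gfap differed more than most markers of their lists, whose median log2 ratios of siYthdf3 over siNC were -0.30 and 0.006. In bulk RNA, fewer cells of a type and less RNA per cell cannot be told apart.

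Among the members, Wwtr1, Tead2 and Tead3 were lower in the siYthdf3 library, while Yap1, Tead1 and Vgll4 had log2 ratios of 0.12, 0.08 and 0.16. Log2 ratios are of siYthdf3 over siNC after adding 0.5 FPKM to each value. Of 7 members, 6 reached a mean of 1 FPKM over both libraries, and Tead4 did not. On the log2 scale 0 members were at least 2-fold lower and 0 at least 2-fold higher, where 0.896% and 0.706% of 13172 genes were. At a 1.5-fold rule 2 members were lower, Wwtr1 and Tead2, and 0 higher, against 3.95% and 2.41% of all genes. Exact 95% intervals of the FPKM ratio, which cover counting error only, lay below 1 for 3 members, above 1 for 1 and included 1 for 2. Across all genes 22.2% of intervals lay below 1 and 20% above, so an interval that leaves out 1 was common.

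**Figure D1:**
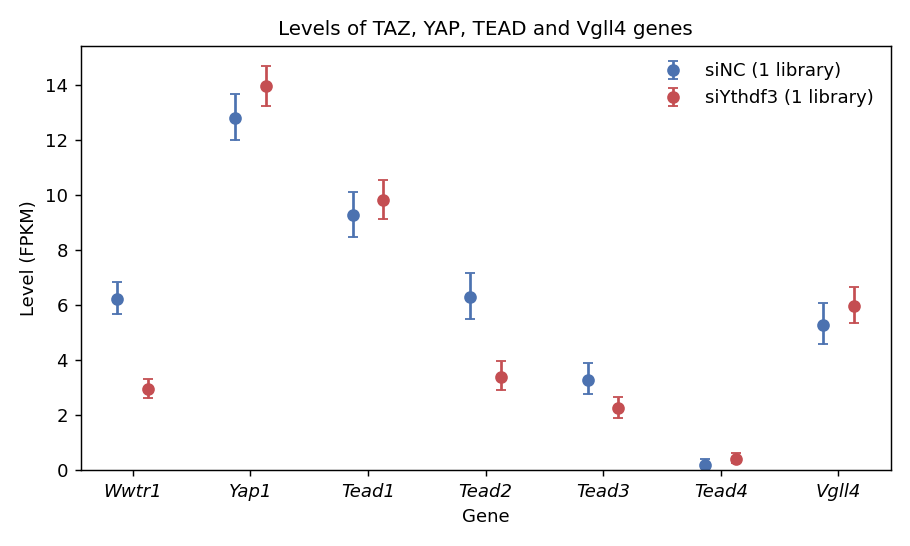
Level of each gene in FPKM (vertical axis) in the siNC library (blue) and the siYthdf3 library (red), 1 library each. Bars are exact 95% Poisson intervals of the read number and cover counting error only. The bars of Wwtr1, Tead2 and Tead3 do not overlap between libraries, and those of Yap1, Tead1 and Vgll4 do. How often the bars of other genes fail to overlap was not counted, so non-overlap alone does not set a member apart.

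Wwtr1 (ENSRNOG00000016617, chromosome 2, 141648108 to 141766968, minus strand, coordinates as deposited, with no build named) encodes TAZ. It was at 6.23 FPKM in siNC (interval 5.67 to 6.84) and at 2.96 FPKM in siYthdf3 (interval 2.64 to 3.31), from 445 and 310 reads. The siYthdf3 library thus gave fewer Wwtr1 reads although its total was 1.47 times as large. The FPKM ratio was 0.475 (interval 0.409 to 0.550), or 2.11-fold lower, and the log2 ratio with the pseudocount was -0.96, short of 2-fold on that scale. Of the 13172 genes, 1.06% had a lower log2 ratio. Among the 7122 other genes with at least as many reads, where counting error is no larger, 42 were lower. By level, Wwtr1 was above 42.8% of the 13172 genes in siNC and above 22.5% in siYthdf3. Its difference was larger than that of the targeted gene: Wwtr1 over Ythdf3 was 0.665 in siNC and 0.427 in siYthdf3, a change of 0.643 (interval 0.540 to 0.765). The change of a within-library ratio is its siYthdf3 value divided by its siNC value.

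Yap1 (ENSRNOG00000005933, chromosome 8, 5095722 to 5167010, minus strand) encodes YAP, the paralogue of TAZ. It was the highest of the 7 in both libraries, at 12.8 FPKM in siNC (interval 12.0 to 13.7) and 13.9 FPKM in siYthdf3 (interval 13.2 to 14.7). The FPKM ratio was 1.09, and its interval of 1.002 to 1.19 barely left out 1. The log2 ratio of 0.12 lay inside the middle 50% of genes, whose quartiles were -0.17 and 0.14. Within a library a ratio of genes does not depend on the library's total, so the paralogues were also compared there. Wwtr1 over Yap1 was 0.487 in siNC and 0.212 in siYthdf3, a change of 0.436 (interval 0.367 to 0.517). Yap1 thus stood at 2.05 times the level of Wwtr1 in siNC and at 4.71 times in siYthdf3. The sum of both was 19.0 FPKM in siNC and 16.9 FPKM in siYthdf3, a ratio of 0.888, and Yap1 made up most of it. The share of Wwtr1 in that sum was 32.8% in siNC and 17.5% in siYthdf3.

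**Figure D2:**
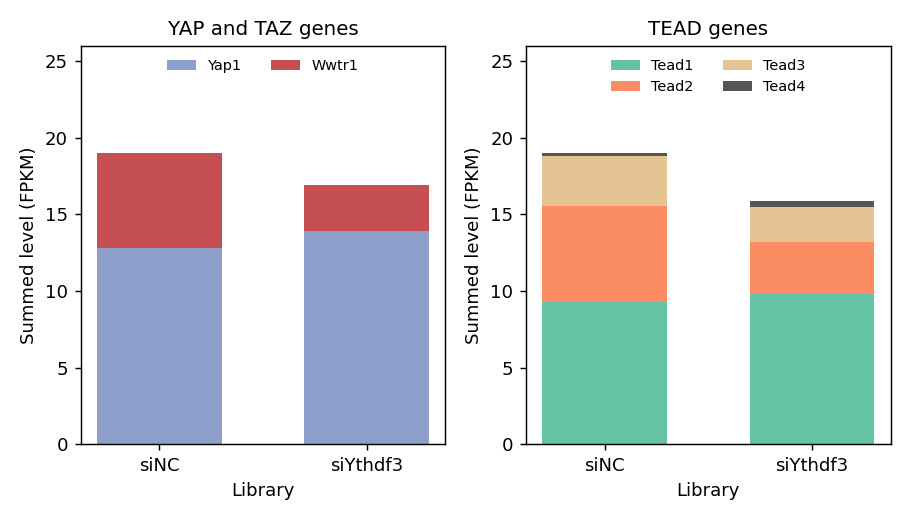
Summed level in FPKM (vertical axis) of the YAP and TAZ genes (left) and of the TEAD genes (right) in each library, stacked by gene. Wwtr1 made up 32.8% of the left column in siNC and 17.5% in siYthdf3, and the Tead2 and Tead3 blocks are smaller in siYthdf3.

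The TEAD genes encode the DNA-binding partners, and they did not move as 1 family. Tead1 (ENSRNOG00000015488, chromosome 1, 166792628 to 167003369, plus strand) was the most abundant, at 9.26 FPKM in siNC and 9.81 FPKM in siYthdf3, from 493 and 766 reads. Its ratio was 1.06 (interval 0.944 to 1.19), which includes 1. Tead2 (ENSRNOG00000020695, chromosome 1, 95703005 to 95719180, plus strand), a family member known from neural progenitors, was at 6.28 FPKM in siNC and 3.40 FPKM in siYthdf3. The reads were 219 and 174, which gave a ratio of 0.541 (interval 0.441 to 0.664) and a log2 ratio of -0.80. Only 1.93% of all genes were lower. Tead3 (ENSRNOG00000000506, chromosome 20, 6392053 to 6411446, minus strand) was at 3.29 FPKM in siNC and 2.26 FPKM in siYthdf3, from 134 and 135 reads. Its ratio was 0.687 (interval 0.537 to 0.879) and its log2 ratio -0.46, with 6.25% of genes lower. Both Tead2 and Tead3 were thus lower in siYthdf3, and their intervals overlapped each other.

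Within the libraries, Tead2 over Tead1 was 0.678 in siNC and 0.347 in siYthdf3, a change of 0.511 (interval 0.404 to 0.647). Tead3 over Tead1 was 0.355 and 0.230, a change of 0.648 (interval 0.493 to 0.853). Tead3 over Tead2 changed by 1.27, and its interval of 0.918 to 1.75 included 1, so these genes were not told apart at this depth. Wwtr1 over Tead2 was 0.992 in siNC and 0.870 in siYthdf3, a change of 0.877 whose interval of 0.680 to 1.13 also included 1. The differences of Wwtr1 and Tead2 between libraries were therefore not told apart. Within each library the intervals of their levels overlapped. Yap1 over Tead1 was 1.38 and 1.42, a change of 1.03 (interval 0.892 to 1.19).

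Tead4 (ENSRNOG00000005608, chromosome 4, 161497851 to 161572323, minus strand), known for its part in the trophectoderm and in muscle, was the lowest member. It was at 0.190 FPKM in siNC and 0.410 FPKM in siYthdf3, from 6 and 19 reads. The ratio of 2.16 had an interval of 0.829 to 6.60, so a difference was not detectable at this depth. The 4 TEAD genes summed to 19.0 FPKM in siNC and 15.9 FPKM in siYthdf3, a ratio of 0.835. Tead1 made up 48.7% of that sum in siNC and 61.8% in siYthdf3, Tead2 33.0% and 21.4%, Tead3 17.3% and 14.2%, and Tead4 1.00% and 2.58%. The YAP and TAZ sum was 1.00 times the TEAD sum in siNC and 1.06 times in siYthdf3, so both sums were lower in siYthdf3 by a similar factor.

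Vgll4 (ENSRNOG00000007822, chromosome 4, 147927034 to 148038471, minus strand), the competitor of YAP and TAZ on TEAD proteins, was at 5.28 FPKM in siNC and 5.97 FPKM in siYthdf3. The reads were 199 and 330, and the ratio of 1.13 had an interval of 0.945 to 1.35, which includes 1. Its row overlaps that of Tamm41, on the same strand, over 20009 bases of genomic span, so reads of that stretch are uncertain. Tamm41, a mitochondrial enzyme of cardiolipin synthesis, was at 14.8 FPKM in siNC and 11.8 FPKM in siYthdf3. The other 6 members overlap no other row. Vgll4 over Wwtr1 was 0.847 in siNC and 2.02 in siYthdf3, a change of 2.38 (interval 1.88 to 3.01). Vgll4 over Yap1 was 0.413 and 0.428, with a change of 1.04 (interval 0.850 to 1.27). Against the sum of Wwtr1 and Yap1, Vgll4 was at 0.278 in siNC and 0.353 in siYthdf3.

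By level in siNC the order was Yap1, Tead1, Tead2, Wwtr1, Vgll4, Tead3 and Tead4. The intervals of Tead2, Wwtr1 and Vgll4 overlapped, and those of the other neighbours in that order did not. In siYthdf3 the order was Yap1, Tead1, Vgll4, Tead2, Wwtr1, Tead3 and Tead4. There the intervals of Tead2 and Wwtr1 overlapped, as did those of Wwtr1 and Tead3. Vgll4 thus stood above Tead2 and Wwtr1 in siYthdf3 beyond counting error, which it did not in siNC.

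**Figure D3:**
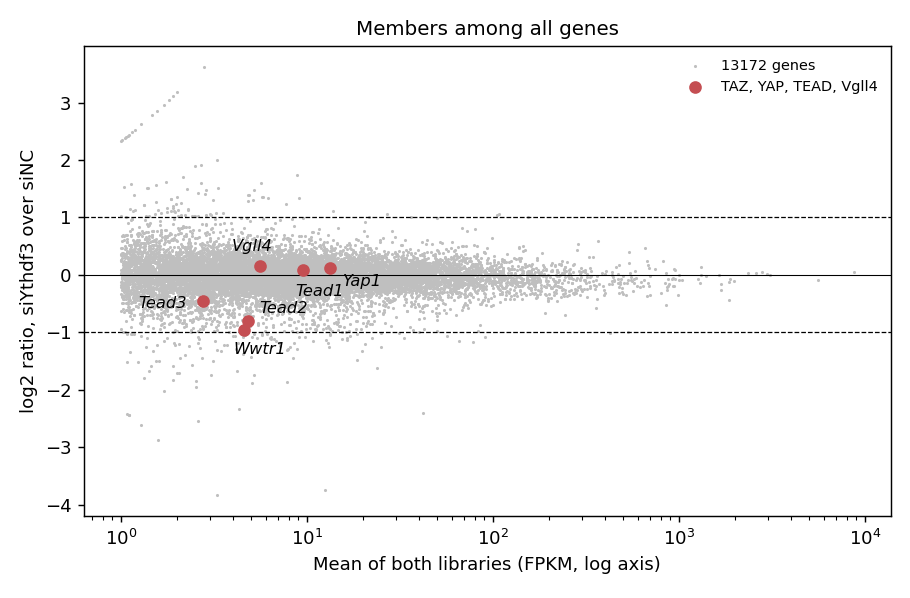
Mean level over both libraries in FPKM (horizontal, log axis) against the log2 ratio of siYthdf3 over siNC (vertical) for 13172 genes (grey) and the 6 members that reached a mean of 1 FPKM (red). Dashed lines mark 2-fold. Wwtr1 at -0.96 and Tead2 at -0.80 lie at the lower edge of genes of like level, and Yap1, Tead1 and Vgll4 lie near 0.

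The genes whose difference was most like that of Wwtr1 were sought among 2569 genes with a mean within 1.5-fold of its mean and at least 100 reads. Likeness was the gap between log2 ratios over 2 libraries, a single number per gene and hence a weak measure. The 5 closest were Cenpw at -0.96, Ttk at -0.95, Aurkb at -0.97, Reep4 at -1.0 and Kif18a at -0.91. Ttk, for example, was at 6.42 FPKM in siNC and 3.07 FPKM in siYthdf3.

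The rest of the pathway was described by 6 lists with 61 genes found in the table, of which 51 reached a mean of 1 FPKM. Among those 51, 1 was at least 2-fold lower (Nuak2) and 1 at least 2-fold higher (Frmd6), where 0.896% and 0.706% of all genes were. Intervals lay below 1 for 19, above 1 for 13 and included 1 for 19. Of all genes, 22.2% had intervals below 1 and 20% above. The median log2 ratio of the 51 was -0.04, where that of all genes was -0.01. Lats2, Amotl2 and Ptpn14 stand in 2 of the lists.

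The kinase module lay close to no difference. Its 7 genes had a median log2 ratio of 0.09 and a range of -0.18 to 0.14, with 1 interval below 1, 1 above and 5 that included it. The MST kinase gene Stk3 was at 6.65 FPKM in siNC and 7.34 FPKM in siYthdf3, and Stk4 at 8.23 and 9.11 FPKM. Sav1, the scaffold of the MST kinases, was at 23.4 and 20.5 FPKM. The LATS kinase gene Lats1 was at 13.9 and 14.7 FPKM and Lats2 at 16.0 and 17.0 FPKM. The LATS coactivator genes Mob1a and Mob1b were at 2.67 and 2.41 FPKM and at 7.37 and 8.17 FPKM. Each of these 7 genes thus differed less than Wwtr1, Tead2 and Tead3 did.

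Upstream regulators went both ways, with 5 intervals below 1, 7 above and 4 that included it among 16 genes, and a median of -0.02. Frmd6, a FERM-domain protein that promotes Hippo signalling, was at 2.10 FPKM in siNC and 5.0 FPKM in siYthdf3, a ratio of 2.38 (interval 1.98 to 2.87). Nf2, the membrane-associated protein merlin, was at 38.5 and 35.3 FPKM, and the scaffold genes Wwc1 and Wwc2 had log2 ratios of -0.17 and -0.17. The angiomotins bind YAP and TAZ directly: Amot was at 4.44 and 4.47 FPKM, Amotl1 at 20.1 and 17.6 FPKM and Amotl2 at 44.7 and 43.0 FPKM. Ptpn14, a phosphatase that also binds YAP, was at 1.68 and 2.47 FPKM, a ratio of 1.47 (interval 1.17 to 1.86). Ajuba, a LIM protein that restrains LATS kinases, was chosen after its value was seen and was at 3.70 FPKM in siNC and 1.77 FPKM in siYthdf3, a ratio of 0.478 (interval 0.378 to 0.602).

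The 6 genes of the ubiquitin ligase and casein kinases that mark YAP and TAZ for degradation had a median of -0.01. Btrc, the ligase's substrate receptor, was at 9.99 FPKM in siNC and 12.3 FPKM in siYthdf3, a ratio of 1.23 (interval 1.12 to 1.35). Its paralogue Fbxw11 was at 7.04 and 6.83 FPKM, with an interval of 0.898 to 1.05. Of the other vestigial-like cofactor genes, Vgll3 was at 3.69 FPKM in siNC and 2.25 FPKM in siYthdf3, a ratio of 0.609 (interval 0.475 to 0.780). Vgll2 had 2 reads in siNC and 0 in siYthdf3, where 0 reads allow up to 0.0833 FPKM. Vgll1 was sought by symbol and not found among the gene rows.

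Of the other transcription factor partners, 4 of the 11 found reached a mean of 1 FPKM. Smad2, Smad3 and Smad4, the mediators of TGF-beta signals that TAZ can bind, had ratios of 0.982, 1.24 and 1.02, and each interval included 1. Erbb4, a receptor whose cleaved part can bind YAP, was at 13.9 FPKM in siNC and 20.1 FPKM in siYthdf3, a ratio of 1.45 (interval 1.35 to 1.57). The runt factor genes that TAZ is known to assist had few reads, with 9 and 22 reads for Runx1, 8 and 24 for Runx2 and 0 and 2 for Runx3. Tp73 had 4 and 12 reads.

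**Figure D4:**
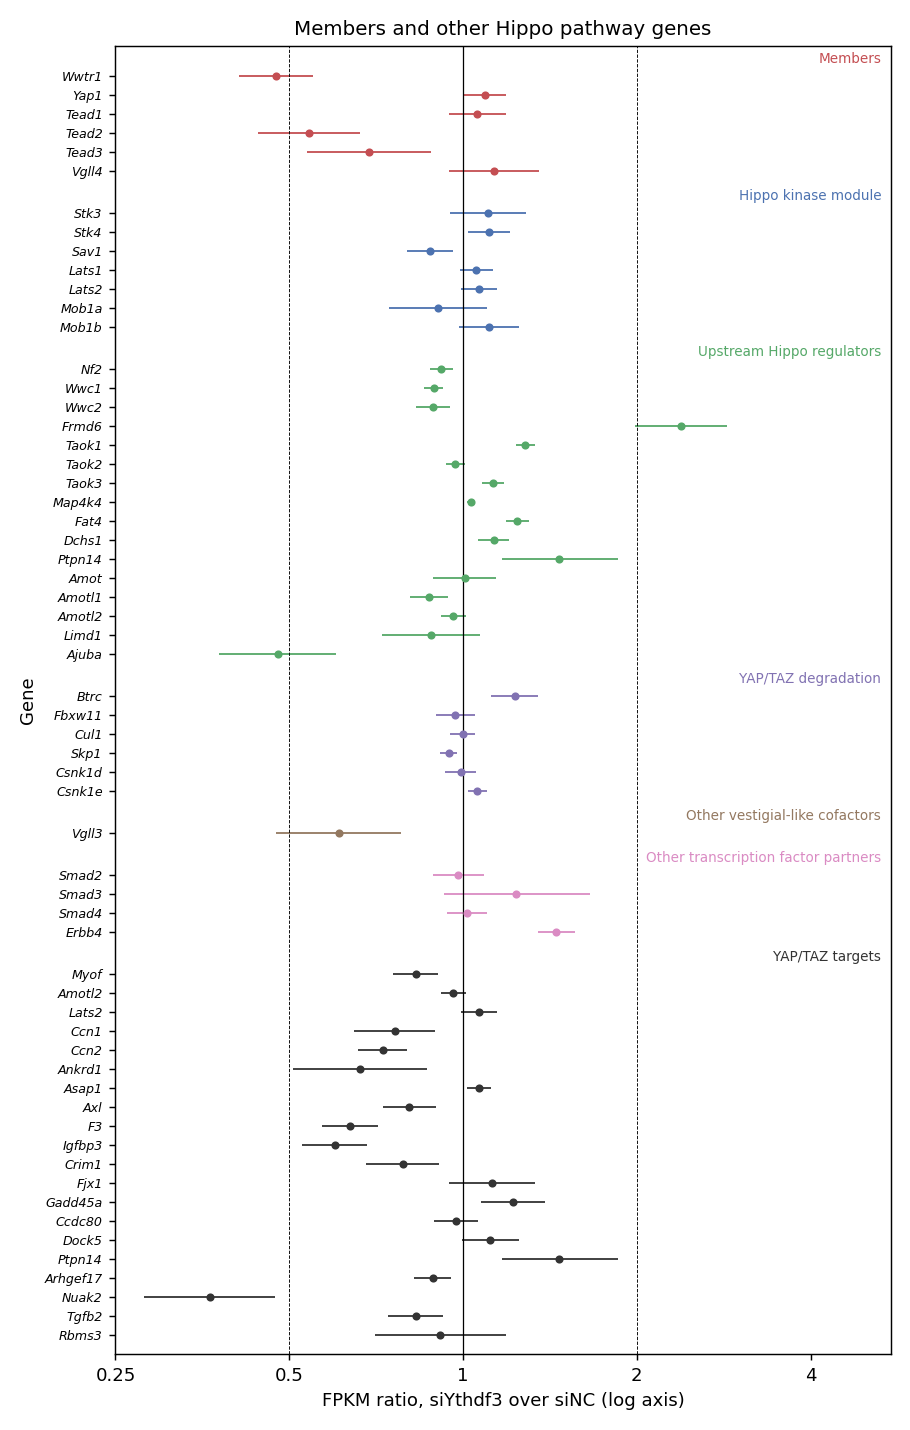
FPKM ratio of siYthdf3 over siNC (horizontal, log axis) with exact 95% counting intervals for the 6 members and for the pathway genes whose mean reached 1 FPKM, grouped by list. Dashed lines mark 2-fold. Wwtr1, Tead2 and Tead3 lie left of 1, the kinase module lies around 1, and Frmd6 lies farthest right.

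Target genes that YAP and TAZ activate through TEAD proteins were lower more often than higher. Of 22 genes, 20 reached a mean of 1 FPKM, with a median of -0.21, 11 intervals below 1, 3 above and 6 that included it. Among all 13172 genes, 22.2% of intervals lay below 1 and 20% above. The lower direction of the targets was known from earlier results of these data and is not independent evidence. Ccn2, a secreted matrix protein, was at 19.0 FPKM in siNC and 13.8 FPKM in siYthdf3, and Ccn1 at 8.99 and 6.85 FPKM. Ankrd1, a nuclear ankyrin-repeat protein, was at 3.08 and 2.04 FPKM, a ratio of 0.664 (interval 0.508 to 0.867). Axl, a receptor tyrosine kinase, was at 9.42 and 7.60 FPKM. Nuak2, an AMPK-related kinase, was at 3.82 FPKM in siNC and 1.39 FPKM in siYthdf3, a ratio of 0.365 (interval 0.280 to 0.472). The 3 targets with intervals above 1 were Ptpn14, Gadd45a and Asap1. Their ratios were 1.47 (interval 1.17 to 1.86), 1.22 (interval 1.08 to 1.39) and 1.07 (interval 1.02 to 1.12). The targets Lats2 and Amotl2, which also act as inhibitors of the pathway, had intervals that included 1.

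Cell cycle genes and markers of cell types were also read in the same libraries. For comparison, 22.2% of all genes had intervals below 1 and 20% above. Genes with many reads have narrow intervals, so the counts below depend on depth as well as on the size of the difference. All 12 cell cycle genes had intervals below 1, with a median log2 ratio of -0.88 and summed levels of 406 FPKM in siNC and 208 FPKM in siYthdf3. Of 11 radial glia and progenitor markers, 7 intervals lay below 1, 0 above and 4 included it, with a median of -0.30. They summed to 2104 and 1438 FPKM, most of it Fabp7 at 1105 and 862 FPKM and Vim at 708 and 357 FPKM. Of 7 oligodendrocyte lineage markers at a mean of 1 FPKM, 5 lay below 1 and 0 above, and the list summed to 38.4 and 23.3 FPKM. The cell cycle genes ran from -1.62 to -0.67, the progenitor markers from -1.96 to 0.10 and the oligodendrocyte lineage markers from -0.82 to -0.16.

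Astrocyte markers went both ways, with 3 intervals below 1 and 4 above among 9 and a median of 0.006. They summed to 142 and 215 FPKM, of which Gfap alone was 68.2 and 141 FPKM, and Gjb6 was at 0 in siNC. Pericyte, fibroblast and meningeal markers had 3 intervals below 1 and 2 above among 6, with sums of 136 and 161 FPKM, most of it Acta2, and Lum at 0 in siNC. Microglia markers summed to 7.45 and 3.58 FPKM, with Cx3cr1 at 0 in siYthdf3, 2 intervals below 1 and 0 above among 3. All 6 endothelial markers were under 1 FPKM in both libraries, with sums of 0.991 and 0.753 FPKM. Pan-neuronal markers had 7 intervals above 1 and 1 below among 10, with a median of 0.26 and sums of 1049 and 1202 FPKM. These counts include small differences of genes with many reads, such as Tubb3 below 1 at a ratio of 0.964 and Stmn2 above 1 at 1.06.

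Wwtr1, Tead2 and Tead3 were also set within the libraries against every marker whose mean reached 1 FPKM, a comparison added after the data were seen. Relative to the 12 cell cycle genes, the interval of the change of Wwtr1 included 1 for 9, lay below 1 for 2 and above 1 for 1, with changes of 0.757 to 1.498. For Tead2 it included 1 for 11 and lay above 1 for 1, and for Tead3 it included 1 for 7 and lay above 1 for 5. Differences of Wwtr1 and Tead2 from most cell cycle genes were thus not detectable at this depth.

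Progenitor markers gave another picture. Relative to the 11 of them, Wwtr1 was lower beyond counting error for 8, included 1 for 2 (Vim and Nes) and was above 1 for Eomes, with changes of 0.435 to 2.77. Over Sox2, for example, Wwtr1 changed by 0.529 (interval 0.453 to 0.618), and over Vim by 0.942 (interval 0.811 to 1.09). Tead2 lay below 1 for 7 of the 11, included 1 for 3 and lay above 1 for 1. Tead3 lay below 1 for 2, included 1 for 7 and lay above 1 for 2. Wwtr1 was thus lower by more than most progenitor markers were.

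Relative to the 9 astrocyte markers, Wwtr1 lay below 1 for 9, with changes from 0.230 over Gfap to 0.783 over Gja1, Tead2 for 7 and Tead3 for 5. Relative to the 10 pan-neuronal markers, Wwtr1, Tead2 and Tead3 each lay below 1 for 10. Relative to the 7 oligodendrocyte lineage markers, Wwtr1 lay below 1 for 4, Tead2 for 2 and Tead3 for 0, and the other intervals included 1. Relative to the 6 pericyte, fibroblast and meningeal markers, Wwtr1 lay below 1 for 3, Tead2 for 3 and Tead3 for 2. Tead3 lay above 1 for 1 of these, and the other intervals included 1. Relative to the 3 microglia markers, Wwtr1, Tead2 and Tead3 each lay below 1 for 1, above 1 for 1 and included 1 for 1. The part of these cells in the differences of Wwtr1, Tead2 and Tead3 was not tested.

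**Figure D5:**
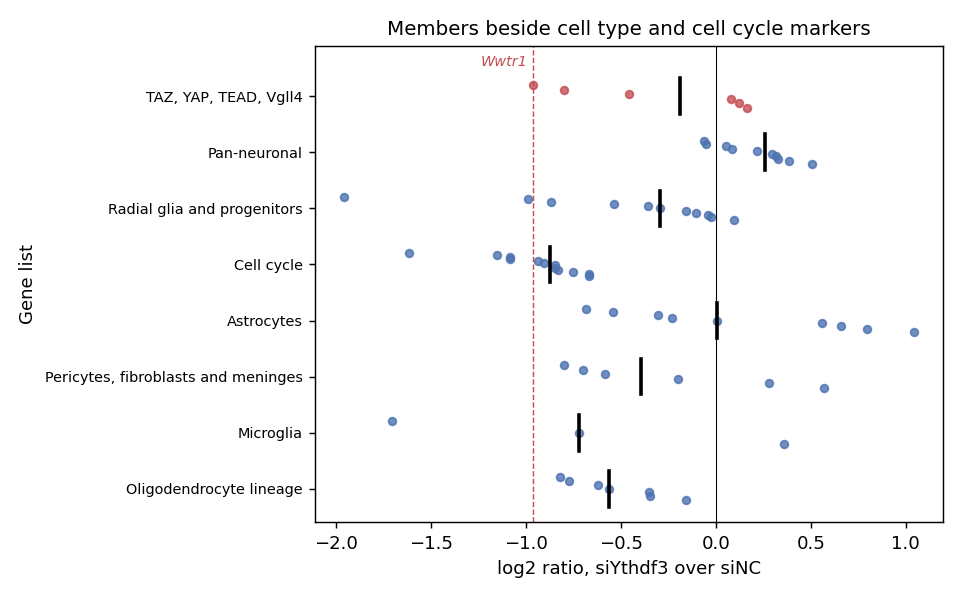
Log2 ratio of siYthdf3 over siNC (horizontal) of each gene whose mean reached 1 FPKM in the members (red) and in 7 marker lists (blue). Black bars are list medians and the dashed line marks Wwtr1 at -0.96, which lies inside the ranges of the cell cycle, progenitor and microglia lists and below all astrocyte, pan-neuronal, oligodendrocyte lineage and pericyte, fibroblast and meningeal genes shown.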

How the data were processed

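Messenger RNA of 1 siNC and 1 siYthdf3 library was analysed, grouped by sample title. Per the submitters' processing notes the tools were edgeR 3.40.2, fastp 0.23.2, featureCounts, STAR 2.7.6a, StringTie 2.1.4 and Subread 1.5.1. Not given in the sources used here: their roles, the genome build, the strand setting and any collapsing by molecular identifier. The authors deposited FPKM values per gene with gene coordinates and lengths, per the file headers.

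Read numbers and depth were recovered from the product of FPKM and length, which gave whole reads, within 0.05 of a read, for 100% of values. A count of 3 reads is the limit that a count of 0 allows. Log2 ratios used a pseudocount of 0.5 FPKM, which understates differences of low genes, and a mean of at least 1 FPKM. With 1 library per group a rule of size of 2-fold replaced a test. Intervals are exact at 95%: Clopper-Pearson for FPKM ratios, Poisson for levels, and the conditional interval of the odds ratio for changes of within-library ratios. They cover counting error only, and reads that copy 1 molecule would make them too narrow.

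The members and lists were chosen with earlier results of these data known. Named were the members, pathway genes by role, any pathway list member 2-fold apart, the 5 genes most like Wwtr1 and some markers as examples. The calculation was tested on simulated data that held counting error only. Spread between cultures was not simulated, so that check says nothing about it. Alternatives were other pseudocounts, filters, scalings, a 1.5-fold rule and, added after the data were seen, removal of a length trend. Python 3.11.15, numpy 2.4.6, pandas 2.3.3, scipy 1.17.1 and matplotlib 3.10.9 were used.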

Additional observations from a re-analysis of the deposited data

How the results depend on the processing

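The log2 ratios of the members were recomputed under 7 other settings each: pseudocounts of 0.1 and 1 FPKM, rescaling to TPM, centring on the median, rescaling without mitochondrial and top 20 genes, summing rows of a symbol and removal of the median of each length decile. All 49 values kept their sign. A pseudocount cannot turn a sign, and summing rows changes nothing for genes on 1 row, so those settings could not have failed. The values of Tead1, Tead4 and Vgll4 are among the 49, although their FPKM ratio intervals included 1. Wwtr1 ran from -1.05 to -0.87, Tead2 from -0.87 to -0.73, Tead3 from -0.52 to -0.40 and Yap1 from 0.08 to 0.17. With a pseudocount of 0.1 FPKM, 1 member (Wwtr1) passed the 2-fold rule, and at a 1.5-fold rule 2 did. Genes at least 2-fold lower numbered 118 and genes at least 2-fold higher 93. Without a filter these were 231 and 249, at a mean of at least 5 FPKM 51 and 16, and at 1.5-fold 520 and 317. With a pseudocount of 1 FPKM 55 genes were higher. The median of the target list ran from -0.28 to -0.12. The medians of the upstream regulator, degradation and astrocyte lists crossed 0, so they have no direction. No paired analysis was possible because each group has 1 library. No replicate could be left out for the same reason.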

Other observations

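The genes beside Wwtr1 on chromosome 2 were read for their values, chosen by position among genes whose mean reached 1 FPKM. Commd2, at 81.7 kilobases on the side of higher coordinates, was at 6.61 FPKM in siNC and 6.53 FPKM in siYthdf3, a ratio of 0.988 (interval 0.831 to 1.18). Rnf13, a ubiquitin ligase gene at 161 kilobases on the opposite strand, was at 8.54 and 5.72 FPKM, a ratio of 0.670 (interval 0.577 to 0.778). On the side of lower coordinates the nearest such gene, Nbea, lay 1308 kilobases away, at 31.4 and 41.2 FPKM.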
